A study of Danio rerio with 3 samples.

Results

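The cells described are the *sox3*-expressing progenitors of the zebrafish hindbrain at 24 and 44 hpf (hours post-fertilisation). With the UMIs (unique molecular identifiers, each standing for 1 captured RNA) of every cell scaled to 10000, a cell was selected on *sox3* of at least 8, *elavl3* plus *elavl4* under 4, and 0 UMIs of *sox10*, *foxd3* and *six1b*. This chose 927 of 2568 cells at 24 hpf and 632 of 3529 cells at 44 hpf, 1559 of the 6097 cells of both libraries and of 9026 cells in the whole series. The same rule chose 1371 of 2929 cells at 16 hpf, which are given beside the others as an earlier level.

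Neural progenitors line the ventricle of the developing brain. SoxB transcription factors and Notch signalling, acting through transcription factors of the Her/Hes family, keep them undifferentiated, while proneural bHLH factors drive their exit to neurons. As neurogenesis proceeds, progenitors take on features of radial glia, such as glutamate transporters and the brain lipid-binding protein Fabp7. The microRNA miR9 is known in zebrafish to repress *her* genes and to limit the progenitor state. RNA-binding proteins and transcription factors of the heterochronic kind, such as Lin28a, mark early progenitors in vertebrates.

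Each stage was 1 library (10x Chromium, 3′) of dissected hindbrain with its surrounding tissue from about 40 pooled wild-type (wt) embryos of the LondonAB strain, with no further treatment or mutation in any group. The embryos were grown at 25 °C for the 16 and 44 hpf samples and at 28.5 °C for the 24 hpf sample. With 1 library per stage there is no replicate and no test between stages: stage, growth temperature, library and depth cannot be told apart. Every interval below is at 95% and covers counting error only.

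Depth differed between the stages. A typical progenitor of 24 hpf held 7798 UMIs from 1817 genes, whereas one of 44 hpf held 3006 from 926.5 genes (medians). In all, 8211630 UMIs of the earlier and 2280989 UMIs of the later progenitors lie behind the values. Each gene's UMIs were summed over the progenitors of a stage and divided by the total of all genes, as counts scaled to the same total (CPM), so that a gene without a UMI can still have up to 0.365 CPM at 24 hpf and 1.32 CPM at 44 hpf (3 UMIs). The libraries shared 11 cell barcodes, none of them between progenitors of both stages. The rule was met by 36.1% of the cells of 24 hpf (Clopper-Pearson interval 34.2 to 38.0) and by 17.9% of those of 44 hpf (16.7 to 19.2), against 46.8% (44.99 to 48.6) at 16 hpf. The lowest count of *sox3* in a member at 44 hpf was 2 UMIs, and 33 members there had no more than that. Just outside the *sox3* threshold, at 6 to 8 per 10000, lay 114 cells at 24 hpf and 33 at 44 hpf, with medians of 6.98 and 6.85, and just inside, at 8 to 10, lay 99 and 33 cells, with medians of 8.90 and 8.97. Cells just inside the *elavl* threshold, at 2 to 4, numbered 158 and 125, and those just outside it, at 4 to 6, numbered 74 and 126.

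The label of progenitor was compared with *gfap* and *sox2*, which the rule did not use. At 44 hpf, *gfap*, an intermediate filament of radial glia, had 248 CPM in the progenitors. It had 9.63 CPM in the 1234 cells with *elavl3* plus *elavl4* at 8 or more and *sox3* under 8, here called *elavl*-high cells, and 6.78 CPM in the 443 cells without any UMI of *sox3*, *sox2*, *elavl3* or *elavl4*, here called marker-negative cells. The SoxB gene *sox2* had 125 CPM at 24 hpf and 180 CPM at 44 hpf in the progenitors, and 21.8 CPM in the *elavl*-high cells of 44 hpf. Genes described below with those of radial glia were split. At 44 hpf, *fabp7a*, *atp1a1b* and *atp1b4* were lower in *elavl*-high cells than in progenitors, whereas *slc1a2b*, *ckbb* and *ndrg2* were higher there. For 24 hpf no such comparison of *gfap* and *sox2* is given. The selecting genes themselves stood at 1797 and 2347 CPM (*sox3*) and at 84.2 and 79.4 CPM (*elavl3*) in the progenitors at 24 and 44 hpf, as a description of the choice.

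Markers of other cells were read as whole lists. Haemoglobin and other blood genes, 13 of 13 in the tables, summed to 24.5 CPM at 24 hpf and 154 CPM at 44 hpf, and all 4 with enough reads to be compared, which encode haemoglobins, were higher at 44 hpf. In cells reduced to 1500 UMIs each, a UMI of haemoglobin was found in 2.27% of progenitors at 24 hpf and 21.0% at 44 hpf, against 4.13% and 21.6% of marker-negative cells. The summed level of 17 epidermal genes was 668 CPM at 24 hpf and 702 CPM at 44 hpf. The 13 progenitors of 44 hpf with under 1500 UMIs held 561 of these 1602 epidermal UMIs, and without them the sum was 460 CPM and the ratio fell from 1.05 to 0.689 (0.644 to 0.736). The summed level of 23 mesenchyme and cartilage genes 207 and 157 CPM, that of 14 placode and otic genes 56.4 and 45.2 CPM, that of 11 vascular genes 11.9 and 9.65 CPM, and that of 10 microglia and leukocyte genes 0.731 and 4.82 CPM. The 10 neural crest genes, of which *sox10* and *foxd3* are at 0 by the rule, summed to 234 and 381 CPM, with *sox9b*, also a radial glia gene, among them. The part of RNA from such cells in the results below was not tested.

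Of 27282 genes, 5259 had a mean CPM of at least 10 over both stages. Among them 384 genes (7.3%) had a ratio of 44 over 24 hpf of at least 2 and 639 genes (12.2%) a ratio of at most 0.5, and here higher and lower mean past these ratios. The counts of list members below are read against these shares. Of the higher genes, 314 could be compared in *elavl*-high cells, where 127 were also higher, and 261 in marker-negative cells, where 142 were. Of the lower genes, 373 and 552 could be compared there, and 208 and 264 were also lower. Among all genes compared in those cells, 7.0% and 8.17% were higher and 19.4% and 13.5% lower. Many of the calls were thus not particular to progenitors. The log2 ratio of the median gene was -0.13, and with this median set to 0 there were 489 higher and 529 lower genes. Without the 13 cells under 1500 UMIs, a selection chosen after the data were seen, 382 of the 384 higher and 633 of the 639 lower genes were called again. The ratio was at least 4 for 119 genes and at most 0.25 for 144. Higher genes held 3.58% of the UMIs of progenitors at 24 hpf and 11.4% at 44 hpf, and lower genes 5.92% and 2.02%.

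**Figure D1:**
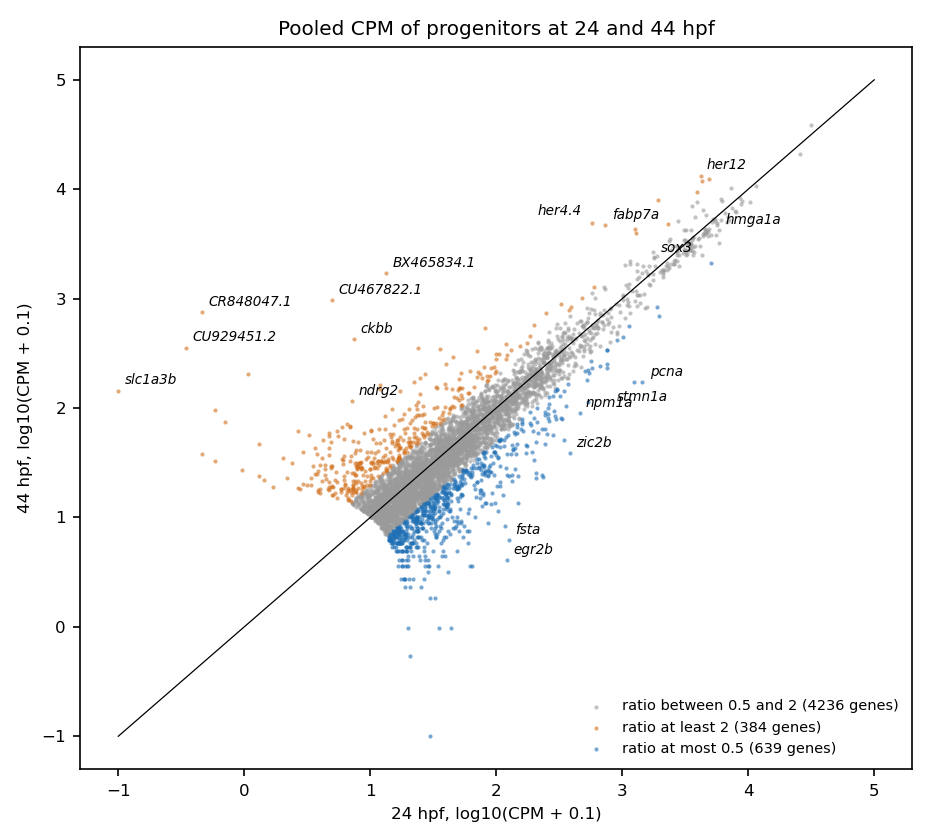
Pooled CPM of the 5259 genes in progenitors at 24 hpf (x axis) and 44 hpf (y axis), both as log10(CPM + 0.1), 1 point per gene, with the line of equal levels. The miR9 loci *CR848047.1*, *CU929451.2* and *CU467822.1*, *BX465834.1*, *slc1a3b* and *ckbb* are among the genes farthest above the line, and *egr2b*, *fsta*, *zic2b*, *pcna* and *stmn1a* are among the abundant genes below it.

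The loci of miR9, the microRNA named above, included the largest ratios among the genes compared. The study names *CR848047.1*, *CU929451.2* and *CU467822.1* as loci of this microRNA. *CR848047.1* had 0 CPM at 16 hpf, 0.365 CPM (3 UMIs) at 24 hpf and 758 CPM (1728 UMIs) at 44 hpf, a ratio of 2074 (708 to 10065) between the last stages. *CU929451.2* had 2 UMIs at 24 hpf and 357 CPM at 44 hpf, a ratio of 1467 (405 to 12134). *CU467822.1* was already at 4.87 CPM (40 UMIs) at 24 hpf and at 976 CPM at 44 hpf, a ratio of 200.3 (147 to 281). All of them were near 0 in both earlier libraries and abundant in the last.

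A further RNA belongs beside them by position. The gene *si:ch73-215f7.1*, a long non-coding RNA that encloses *mir9-2* in the RefSeq annotation of another assembly (GRCz12tu), had 0 CPM at 16 hpf, 0.974 CPM (8 UMIs) at 24 hpf and 203 CPM at 44 hpf, a ratio of 208 (105 to 484). This neighbour was looked up after its values were seen. At 1500 UMIs per cell, 0.647% (0.238 to 1.403) of progenitors at 24 hpf and 93.2% (90.9 to 95.1) at 44 hpf had a UMI of at least 1 of these 4 loci. Among *elavl*-high cells of 44 hpf the share was 20.5%, and among marker-negative cells it was 8.197% (5.78 to 11.2). The latter were chosen only by a lack of *sox3*, *sox2*, *elavl3* and *elavl4* UMIs, so neural cells among them are not excluded. The median depths before this reduction were 3006, 2328 and 4357 UMIs. With all UMIs, *CU467822.1* was seen in 4.099% of progenitors at 24 hpf and 90.8% at 44 hpf. The 758 CPM of *CR848047.1* in progenitors of 44 hpf stood against 46.9 CPM in *elavl*-high and 16.9 CPM in marker-negative cells.

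*BX465834.1*, which has no gene name in the tables used here, had 0.0724 CPM at 16 hpf, 13.3 CPM at 24 hpf and 1717 CPM at 44 hpf, a ratio of 129 (107 to 158). It was found in 3.02% of progenitors at 24 hpf and 86.8% at 44 hpf at equal UMIs. Its level in *elavl*-high cells of 44 hpf was 305 CPM.

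**Figure D2:**
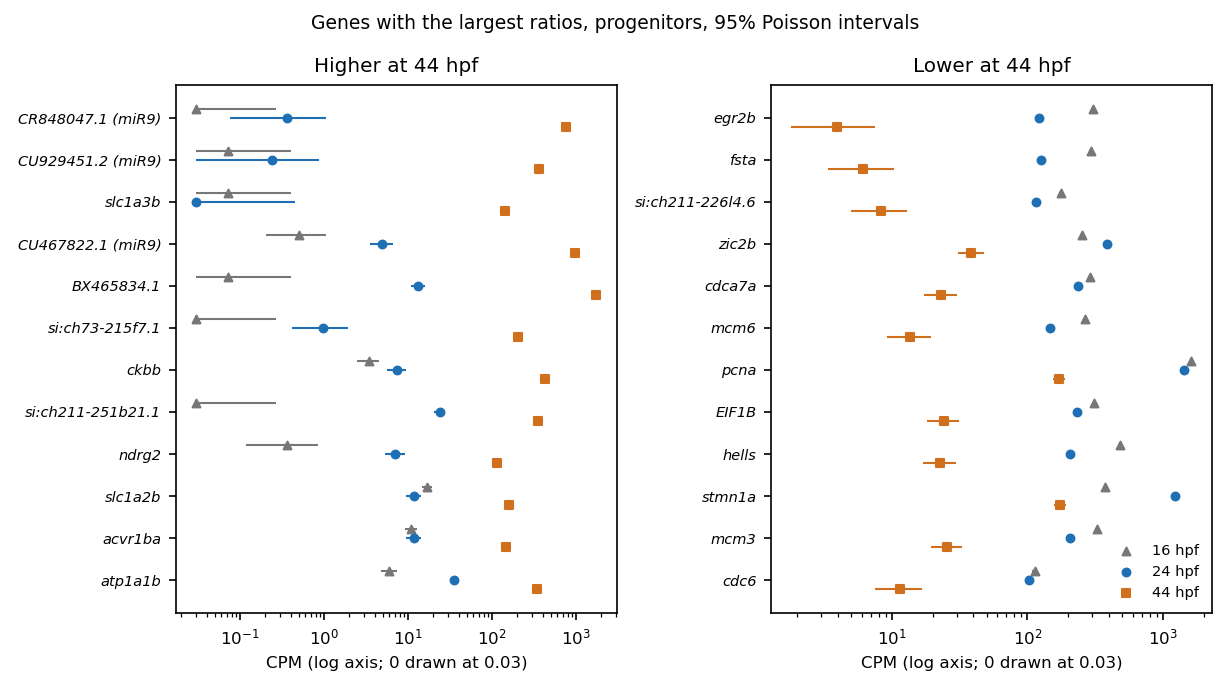
CPM (log axis) of the 12 genes with the largest ratios in each direction at 16 hpf (triangles), 24 hpf (circles) and 44 hpf (squares), with 95% Poisson intervals as lines and 0 drawn at 0.03. The genes higher at 44 hpf range there from 115 CPM (*ndrg2*) to 1717 CPM (*BX465834.1*), and all lie under 40 CPM at the earlier stages.

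Genes of radial glia were higher at 44 hpf. The deposited matrices hold 35 such genes, of which 22 had enough reads, 13 were higher (against 7.3% of all genes) and none lower, with a median log2 ratio of 1.76. The list was drawn up with results of these libraries known, and *fabp7a*, *atp1b4*, *atp1a1b*, *slc1a2b* and *metrnl* are genes that the study names from them, so its count is not independent evidence of its direction. The sum over the list was 3442 CPM at 16 hpf, 4883 CPM at 24 hpf and 10006 CPM at 44 hpf, a ratio of 2.05 (2.02 to 2.08). A single gene, *fabp7a*, described below, made up most of the rise of this sum between 24 and 44 hpf. Besides the genes described here, *fabp7b*, *cspg5a*, *ptprz1a* and *ptprz1b* were higher. In marker-negative cells 6 of 16 genes of the list were also higher and none lower, with a sum ratio of 1.23. In *elavl*-high cells 4 of 13 were higher and 3 lower, with a sum ratio of 0.825. All genes there had shares of 8.17% and 7.0% higher, and of 13.5% and 19.4% lower.

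*fabp7a*, the brain lipid-binding protein of radial glia, had 119, 736 and 4679 CPM at the successive stages, a ratio of 6.36 (6.16 to 6.56) for the last pair. *slc1a3b*, a glial glutamate transporter, had no UMI at 24 hpf and 328 UMIs (144 CPM) at 44 hpf. Its ratio of 394 was computed with the floor count, given with the data processing, in place of 0 at 24 hpf. On the log2 scale this ratio was 8.62, and its interval began at 8.31. *slc1a3b* was seen in 5.98% of progenitors at 44 hpf at equal UMIs, and in 0 of 427 marker-negative cells, which allows a share of up to 0.703%. Its RNA was thus detected in few of the progenitors, and that of the miR9 loci in most. The related transporter *slc1a2b* had 16.9, 11.8 and 161 CPM, a ratio of 13.6 (10.9 to 17.2), but it was higher in *elavl*-high cells of 44 hpf, at 346 CPM.

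The subunits of the sodium pump *atp1a1b* and *atp1b4* were both higher. *atp1a1b* had 6.01, 35.6 and 346 CPM (9.73, 8.50 to 11.2), and *atp1b4* 5.43, 22.3 and 174 CPM (7.79, 6.52 to 9.33). At 44 hpf they had 8.39 and 6.84 CPM in the *elavl*-high cells, well under the progenitors. *sox9b*, a transcription factor of glial and crest lineages, had 24.7 and 189 CPM (7.66, 6.47 to 9.10), and *tnc*, the matrix protein tenascin C, 23.9 and 113 CPM (4.72, 3.91 to 5.71), the latter detected in 12.9% of progenitors and 19.4% of marker-negative cells at 44 hpf and equal UMIs. *ckbb*, brain creatine kinase, had 7.31 and 430 CPM (58.8, 45.3 to 77.7), and *ndrg2*, a marker of astrocytes in mammals, 7.06 and 115 CPM (16.3, 12.2 to 22.1). In *elavl*-high cells of 44 hpf they had 1340 and 214 CPM, and *ndrg2* was detected in 14.7% of progenitors and 13.8% of marker-negative cells.

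In low-cycle cells, the progenitors with few UMIs of cell cycle genes described below, *atp1a1b* had a ratio of 40.8 (15.8 to 150), from 4 UMIs at 24 hpf, *slc1a2b* one of 77.5 (13.8 to 3074), from 1 UMI, and *fabp7a* one of 13.1 (11.3 to 15.3), so that these values depended on which cells were compared. *metrnl*, with a log2 ratio of 1.45 over all progenitors, was at 0.32 there and no longer past the limit.

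Some other genes used to recognise radial glia had enough reads but did not pass a ratio of 2 in either direction, namely *gfap*, *metrn* and *glulb*. The markers *glula* and *cx43* had too few reads to be compared. Of these, *glula* had fewer counts at 44 hpf. It had 12.57 and 1.60 CPM (62 and 2 UMIs) in progenitors without a UMI of a proneural gene, and 15.55 and 6.92 CPM (51 and 7 UMIs) in those with one. *gfap* had 264, 294 and 248 CPM (0.843, 0.768 to 0.924). The neurotrophic factor *metrn* had 263 and 257 CPM (0.976, 0.889 to 1.07), whereas its paralogue *metrnl* had 46.4 and 127 CPM (2.74, 2.34 to 3.201). *glulb*, a glutamine synthetase, stood at 430 and 245 CPM (0.569, 0.520 to 0.623). The list thus held members past the limit and members within it. Of 11 oligodendrocyte lineage genes 3 had enough reads, and the transcription factor *olig2*, with 13.2 and 26.3 CPM (interval of the ratio 1.43 to 2.77), lay at the limit of 2.

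Genes of DNA replication showed the opposite. Of 43 genes with enough reads 42 were lower at 44 hpf, against 12.2% of all genes, the exception being *gins3* with a ratio of 0.501, and their median log2 ratio was -2.11. Their sum was 8217 CPM at 16 hpf, 7530 CPM at 24 hpf and 2005 CPM at 44 hpf, a ratio of 0.266 (0.258 to 0.274). In marker-negative cells 15 of 41 were lower, against 13.5% of all genes there, with a sum ratio of 0.587. In *elavl*-high cells 6 of 16 were lower, against 19.4%, with a sum ratio of 0.768. A fall was thus not particular to progenitors, though its ratio was lowest in them. *pcna*, the sliding clamp of DNA polymerases, had 1619, 1429 and 171 CPM (0.120, 0.108 to 0.133) and was seen in 77.2% of progenitors at 24 hpf and 14.5% at 44 hpf at equal UMIs, against 58.7% and 28.8% of marker-negative cells. Of the subunits of the replicative helicase, *mcm6* had 148 and 13.6 CPM (0.0921, 0.0623 to 0.131), *mcm3* had 207 and 25.4 CPM (0.123, 0.0930 to 0.160) and *mcm7*, the subunit with the ratio nearest to 1, 287 and 93.4 CPM (0.326, 0.282 to 0.375). The loader of that helicase, *cdc6*, had 103 and 11.4 CPM (0.111, 0.0718 to 0.163). Outside the list, the chromatin remodeller *hells* had 207 and 22.8 CPM (0.110, 0.0819 to 0.145), and *cdca7a*, a partner of that remodeller in mammals, 237 and 23.2 CPM (0.0982, 0.0733 to 0.129).

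For the genes of mitosis fewer members passed the limit. Of 47 with enough reads 7 were lower, among them *smc2* and *smc4* of the condensin complex, a share near the 12.2% of all genes, and none higher, with a median log2 ratio of -0.41, and their sum was 4314, 4012 and 2872 CPM at the successive stages, a ratio of 0.716 (0.697 to 0.735). The spindle protein *nusap1* had 226 and 214 CPM (0.943, 0.852 to 1.04), *mki67*, a chromosome coat protein used to mark cycling cells, 311 and 182 CPM (0.586, 0.527 to 0.650), and *cdca8*, of the chromosomal passenger complex, 69.8 and 44.7 CPM (0.641, 0.514 to 0.792). The UMIs of replication genes were 1.91 times (1.89 to 1.92) those of mitosis genes at 16 hpf, 1.88 times (1.85 to 1.90) at 24 hpf and 0.698 times (0.672 to 0.725) at 44 hpf. In marker-negative cells these ratios were 1.202, 1.61 and 1.21, so that the replication genes outnumbered the mitosis genes at every stage there. In *elavl*-high cells they were 1.63, 1.31 and 0.887 (0.839 to 0.938), so that the order at 44 hpf was not particular to progenitors.

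Both lists were then counted in single cells. At 1500 UMIs per cell, the median progenitor had 17 UMIs of both lists at 24 hpf and 2 at 44 hpf. Cells with at most 4 such UMIs, here called low-cycle cells, made up 7.01% (65 of 927 cells, 5.45 to 8.85) of the earlier and 62.5% (387 of 619 cells, 58.6 to 66.3) of the later progenitors, with 13 shallower cells of 44 hpf left out. Only 21 and 27 cells lay at 4 or 5 UMIs, next to this limit. At 24 hpf the low-cycle cells had 1784 CPM of ventralmost and floor plate genes, and the cells above the limit 317 CPM. For proneural and commitment factors these sums were 2570 and 1433 CPM. Low-cycle cells of 44 hpf had 504.5 and 2091 CPM of these lists. Ratios within low-cycle cells therefore compare sets of cells of unlike make-up. At least 3 replication UMIs were found in 89.5% and 27.9% of progenitors, and at least 3 mitosis UMIs in 61.7% and 31.0%. Among the cells above the limit, which were selected on the sum of these genes, the replication list had a ratio of 0.479 (44 over 24 hpf), and the mitosis list one of 1.44, as a description.

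**Figure D3:**
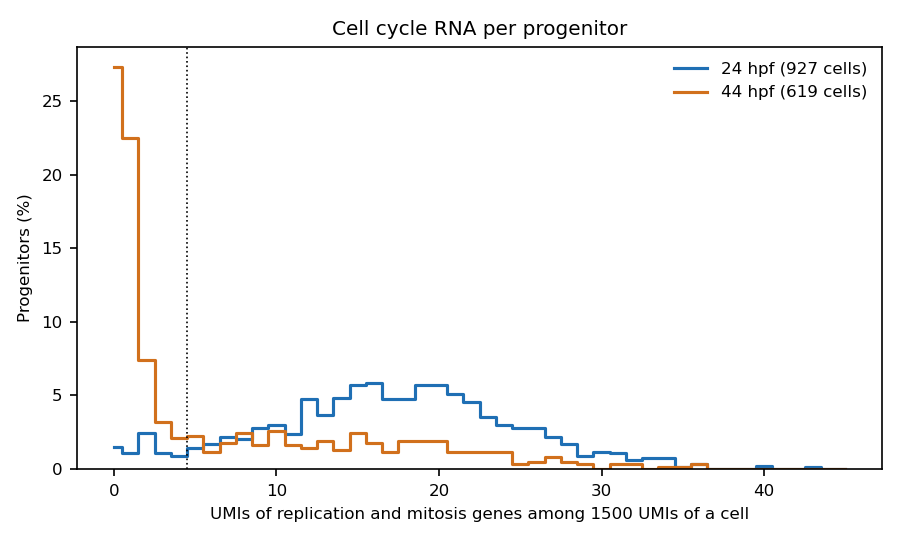
Share of progenitors (y axis, percent) by the UMIs of replication and mitosis genes among 1500 UMIs of the cell (x axis), for 927 cells at 24 hpf and 619 at 44 hpf, with a dotted line between 4 and 5 UMIs. The 44 hpf cells gather at 0 to 2 UMIs, with a long tail, and the 24 hpf cells around a median of 17.

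The regulators of the cycle were more often lower than higher. Of 17 with enough reads 8 were lower and 1 higher, against 12.2% and 7.3% of all genes. *ccnd1*, the cyclin of the G1 phase, had 1027, 756 and 232 CPM (0.307, 0.280 to 0.335), and the transcription factor *e2f3* of the same phase was also lower, with 61.1 and 11.8 CPM. The higher gene was *cdkn1bb*, an inhibitor of cyclin-dependent kinases, with 90.6 and 230.2 CPM (2.54, 2.27 to 2.84), detected in 27.8% of progenitors and 27.6% of marker-negative cells at 44 hpf and equal UMIs. Its relatives *cdkn1ca* (277 and 372 CPM) and *cdkn1cb* (60.4 and 25.9 CPM) had ratios of 1.34 and 0.428, the latter being called lower, but not when the rule was applied at 1500 UMIs per cell (log2 -0.26). *stmn1a*, a microtubule destabiliser listed with the neuronal genes, had 373 CPM at 16 hpf, 1235 CPM at 24 hpf and 174 CPM at 44 hpf (0.141, 0.127 to 0.156), and it was in 15.5% of progenitors and 43.6% of marker-negative cells at 44 hpf at equal UMIs.

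Genes for ribosome production were lower, those of the ribosome itself mostly within the limits. Of 36 ribosome biogenesis genes with enough reads 21 were lower, against 12.2% of all genes, and none higher. Their median log2 ratio was -1.10, with sums of 8911, 3411 and 1503 CPM (0.441, 0.425 to 0.457). In *elavl*-high cells 14 of 26 were lower, with a sum ratio of 0.514, and in marker-negative cells 20 of 41, with 0.506. All genes there had shares of 19.4% and 13.5%. The fall was thus not particular to progenitors. *npm1a*, the nucleolar chaperone nucleophosmin, had 1501, 460 and 90.3 CPM (0.196, 0.170 to 0.226). *nhp2* and *dkc1*, which belong to 1 complex that modifies ribosomal RNA, had ratios of 0.168 (0.132 to 0.211) and 0.201 (0.150 to 0.263). In low-cycle cells the sum over the list had a ratio of 0.721 in place of 0.441. Of 79 ribosomal protein genes with enough reads 1 (*rps19bp1*, which binds such a protein) was lower and none higher, and their sum had a ratio of 0.861 (0.858 to 0.863). Among the Myc family, transcription factors of growth, *mych* (91.6 and 13.2 CPM), *myca* (49.0 and 9.21 CPM) and *myclb* (207 and 49.1 CPM) were lower, while *mycn* had 417 and 241 CPM and none of 9 was higher.

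**Figure D4:**
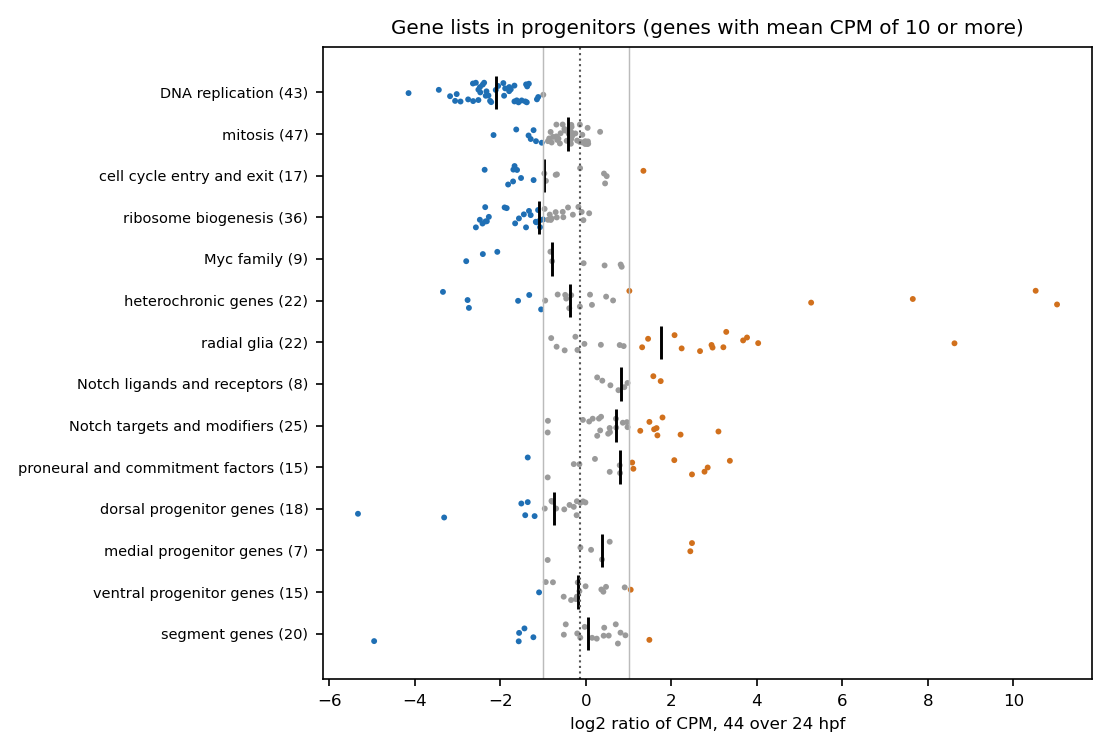
Log2 ratio of CPM (44 over 24 hpf, x axis) of the genes of 14 lists with a mean CPM of at least 10 (number in parentheses), 1 point per gene, with the median of the list (black bar), the median of all genes tested (dotted line) and the 2-fold limits (grey lines). Nearly all replication genes lie left of the lower limit, most mitosis genes between the limits, and 13 of 22 radial glia genes right of the upper one.

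Notch pathway genes were among the most abundant of the higher genes. Of 25 targets and modifiers with enough reads 8 were higher, against 7.3% of all genes, and none lower, with a median log2 ratio of 0.70 and a summed level of 37130, 30914 and 61567 CPM (1.99, 1.98 to 2.01). *her12* had 2424, 4183 and 13327 CPM (3.19, 3.14 to 3.24), and *her4.4* 298, 573 and 4912 CPM (8.57, 8.29 to 8.87). The *her4* genes and *her12* lie side by side and are close copies, so reads can be split between them in an uncertain way. Summed, these 6 genes had 16455, 14579 and 40082 CPM (2.75, 2.73 to 2.77). The other array, of *her15* genes and *her2*, had 11969, 10107 and 11093 CPM over 3 genes (1.098, 1.08 to 1.11). Outside the arrays, *hey1* had 50.8 and 153 CPM (3.02, 2.61 to 3.49), *hes6* 98.9 and 311 CPM (3.14, 2.84 to 3.48) and *her8.2* 33.4 and 155 CPM, whereas *her9* had 1560 and 839 CPM (0.538, 0.512 to 0.564) and *her6* 1077 and 1331 CPM. The *her* genes therefore differed in direction among themselves. *hey1* was detected in 19.4% of progenitors and 65.6% of marker-negative cells at 44 hpf and equal UMIs, and the part of RNA from such cells was not tested, whereas for *hes6* these shares were 38.9% and 6.32%.

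Of 8 ligands and receptors 2 were higher (all genes, 7.3%), the ligands *dld*, with 53.9, 105 and 314 CPM (2.98, 2.698 to 3.30), and *jag1a*, with 14.7 and 49.5 CPM (3.36, 2.58 to 4.38). The ligand *dla* had 474 and 618 CPM and the receptor *notch1a* 166 and 309 CPM. In low-cycle cells alone the sum over ligands and receptors had a ratio of 0.816, in place of 1.66 in all progenitors. The low-cycle cells of 24 hpf behind this value are 65, with 409802 UMIs.

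Proneural and commitment factors were more often higher than lower. Of 15 with enough reads 7 were higher and 1, *olig4*, lower, against 7.3% and 12.2% of all genes, with a median log2 ratio of 0.80. Those higher are known from cells that leave the progenitor state, such as *nhlh2*, with 3.65 and 37.7 CPM (10.3, 6.74 to 16.2), *ebf3a*, with 7.43 and 31.1 CPM (in 5.98% of progenitors and 19.7% of marker-negative cells at 44 hpf and equal UMIs), and *insm1a*, with 3.65 and 25.0 CPM. The medial factor *ptf1a* had 5.97 and 33.3 CPM (5.58, 3.85 to 8.17). The proneural genes of progenitors had smaller ratios: *neurog1* had 224 and 201 CPM, *ascl1a* 71.2 and 105 CPM, and *atoh1a* 107 and 88.1 CPM. A UMI of a proneural gene was found at equal UMIs in 40.5% (37.3 to 43.7) of progenitors at 24 hpf and 43.1% (39.2 to 47.1) at 44 hpf. In low-cycle cells the sum over the list had a ratio of 0.814, in place of 1.42. In *elavl*-high cells 7 of 20 genes of the list were higher and 4 lower, with a sum ratio of 1.61. In marker-negative cells 4 of 8 were higher and 1 lower, with a sum ratio of 1.73. All genes there had shares of 7.0% and 8.17% higher, and of 19.4% and 13.5% lower. The rise was thus not particular to progenitors.

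Of 15 neuronal genes 8 were higher (all genes, 7.3%), among them *gng3*, with 14.9 and 97.3 CPM, *hmp19*, with 20.3 and 97.3 CPM, and *tubb5*, with 186 and 456 CPM, and 1, *stmn1a*, was lower. The summed level was 2616 CPM at 24 hpf and 2668 CPM at 44 hpf. This sum holds *stmn1a*, whose fall, given above, offset the rise of the other members. The median log2 ratio of the 15 genes was 1.29. *gng3* was found in 12.4% of progenitors and 16.6% of marker-negative cells of 44 hpf at equal UMIs. Its share in progenitors thus did not exceed that in cells chosen for a lack of neural marker UMIs. The *elavl*-high cells, a source of such RNA, were 154 of 2568 cells at 24 hpf and 1234 of 3529 at 44 hpf, and the part of their RNA was not tested.

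At 44 hpf, progenitors with and without a proneural UMI differed in some of their glial genes. In the 267 cells with such a UMI the radial glia list summed to 6465 CPM, and in the 352 cells without one to 12942 CPM, a ratio of 0.4995 (0.485 to 0.514). *fabp7a* had 2309 CPM with and 6649 CPM without a proneural UMI (0.347, 0.332 to 0.364), *atp1a1b* 166 and 492 CPM (0.337, 0.283 to 0.401), and *slc1a3b* 15.8 and 249 CPM (0.0634, 0.0358 to 0.105). Most of the difference in the sum lay in *fabp7a* alone. Other glial genes had intervals that included 1, namely *gfap* (0.883, 0.743 to 1.05), *metrn* (0.948, 0.801 to 1.12), *ndrg2* (0.990, 0.769 to 1.27) and *sox9b* (1.07, 0.876 to 1.29). The miR9 locus *CR848047.1* had 718 and 787 CPM (0.913, 0.828 to 1.01), and *BX465834.1* 1737 and 1704 CPM (1.02, 0.957 to 1.09). *CU929451.2* had a ratio of 1.003 (0.871 to 1.15), and *CU467822.1* one of 0.842 (0.773 to 0.917), the latter beyond its counting error. The Notch ligand *dld* had 471 CPM with and 191 CPM without a proneural UMI (2.46, 2.11 to 2.89).

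Cycling and low-cycle progenitors of 44 hpf showed a similar order. The radial glia list had 8418 CPM in the 232 cycling cells and 11421 CPM in the 387 low-cycle cells (0.737, 0.718 to 0.757), *slc1a3b* 46.4 and 228 CPM (0.203, 0.146 to 0.277) and *CR848047.1* 743 and 767 CPM (0.969, 0.880 to 1.07), while *CU467822.1* had 886 and 1054 CPM (0.841, 0.772 to 0.916). Most of the difference in the radial glia sum lay in *fabp7a*, with 3573 and 5668 CPM. Ribosome biogenesis genes had 1510 and 1500 CPM, a ratio of 1.01 (0.941 to 1.08). *si:ch211-251b21.1*, a protein-coding gene without a gene name, had the other order, with 523 CPM in cycling and 211 CPM in low-cycle cells (2.48, 2.13 to 2.88), while over all progenitors it had 23.9 and 354 CPM at 24 and 44 hpf (14.8, 12.7 to 17.4).

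Among heterochronic genes, which mark early or late progenitors, 22 had enough reads, 5 were higher and 6 lower, against 7.3% and 12.2% of all genes. The 3 miR9 loci among the higher genes are named by the study from these libraries. The count of higher genes is therefore not independent evidence of a direction. Lower were *lin28a*, an RNA-binding protein of early embryos, with 49.0 and 4.82 CPM (0.0985, 0.0488 to 0.178), *zbtb16a*, a transcription factor of early neural progenitors, with 359, 344 and 50.4 CPM (0.147, 0.121 to 0.177), *zbtb16b*, with 55.5 and 8.33 CPM, and *trim71*, a ubiquitin ligase known from the same timing pathway in worms, with 443, 320 and 128 CPM (0.399, 0.352 to 0.450). The nuclear receptors *nr2f5* (93.5 and 31.1 CPM) and *nr2f2* (304 and 147 CPM) were also lower. *hmga1a*, a chromatin protein of immature cells, had 5915 and 4228 CPM. Higher beside the 3 miR9 loci were *zbtb18*, with 52.2 and 106 CPM, and *zbtb20*, which in mammals takes part in the timing of astrocyte formation, with 1.22 CPM (10 UMIs) and 46.9 CPM (38.5, 20.2 to 82.6). In *elavl*-high cells of 44 hpf *zbtb20* had 121 CPM.

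By the sums of their lists over all progenitors, the genes that place progenitors along the dorsoventral (D-V) axis changed most at the dorsal end. Of 18 dorsal genes 6 were lower, against 12.2% of all genes, and none higher, with sums of 1625, 2632 and 1384 CPM (0.526, 0.507 to 0.546). *zic2b* had 252, 384 and 38.6 CPM (0.1004, 0.0803 to 0.124), *msx1b* 307, 244 and 85.5 CPM (0.351, 0.301 to 0.407), and *bmp5*, a signal of the roof plate, 35.3 CPM (290 UMIs) and 0.877 CPM (2 UMIs), a ratio of 0.0248 (0.00299 to 0.0905), and *pax7b*, *olig4* and *msx3* were the others. *zic1*, of the same family as *zic2b*, had 142 and 141 CPM (0.992, 0.874 to 1.12). Of 7 medial genes 2 were higher (all genes, 7.3%), *ptf1a* and *gsx2*, the latter with 2.24, 24.8 and 135 CPM (5.43, 4.54 to 6.52). The medial sum had a ratio of 1.215 (1.153 to 1.279). Of 15 ventral genes 1 was higher (*sulf2b*, 35.4 and 73.2 CPM) and 1 lower (*dbx1b*, 108 and 50.4 CPM), with a sum ratio of 0.936 (0.903 to 0.971). Of 11 ventralmost and floor plate genes 1 was higher and 2 lower, with a sum ratio of 1.063 (0.987 to 1.143). These counts stand against 7.3% and 12.2% of all genes.

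To see whether the largest changes were found along the whole axis, progenitors were grouped at equal UMIs by the largest sum of UMIs of dorsal, medial, ventral or ventralmost genes. Dorsal cells were 47.1% (43.9 to 50.4) of progenitors at 24 hpf and 24.4% (21.1 to 28.0) at 44 hpf, medial cells 10.1% and 20.4%, ventral cells 24.6% and 26.0% and ventralmost cells 5.50% and 7.59%. Cells without such a group were 12.6% and 21.7%. Within dorsal cells, which were chosen by the dorsal genes, the sum of these genes had a ratio of 0.752 (0.717 to 0.789), in place of 0.526 in all progenitors. The other groups were chosen by their own genes too. The sums of these had ratios of 0.7915 (0.752 to 0.833) in ventral and 0.785 (0.7105 to 0.866) in ventralmost cells. In medial cells the ratio was 1.204 (1.118 to 1.295). Within its own group the dorsal list thus did not stand apart from the ventral and ventralmost lists. Of the 12 genes that led the higher group, all had a ratio of at least 2 in each of the 4 groups, with *CR848047.1*, *CU929451.2*, *si:ch73-215f7.1* and *slc1a3b* at 0 UMIs in some or all groups of 24 hpf and set to the floor there. Of the 12 that led the lower group, all had a ratio of at most 0.5 in each, except *zic2b*, which the dorsal group was chosen by, with 0.980 (0.314 to 2.64) in ventralmost cells, from 16 and 6 UMIs.

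Within this pattern the size of the glial ratios differed by group. *fabp7a* had 423 and 9780 CPM in ventralmost cells (23.1, 19.9 to 27.1), 480 and 3387 CPM in ventral cells (7.07, 6.53 to 7.65), 1541 and 5791 CPM in medial cells (3.76, 3.51 to 4.03) and 689 and 2360 CPM in dorsal cells (3.43, 3.21 to 3.66). *slc1a3b* at 44 hpf had 410 CPM in ventralmost, 179 in medial, 132 in dorsal and 15.6 in ventral cells. *gsx2*, with 450 CPM in medial cells at 44 hpf, was one of the genes that the medial group was chosen by.

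**Figure D5:**
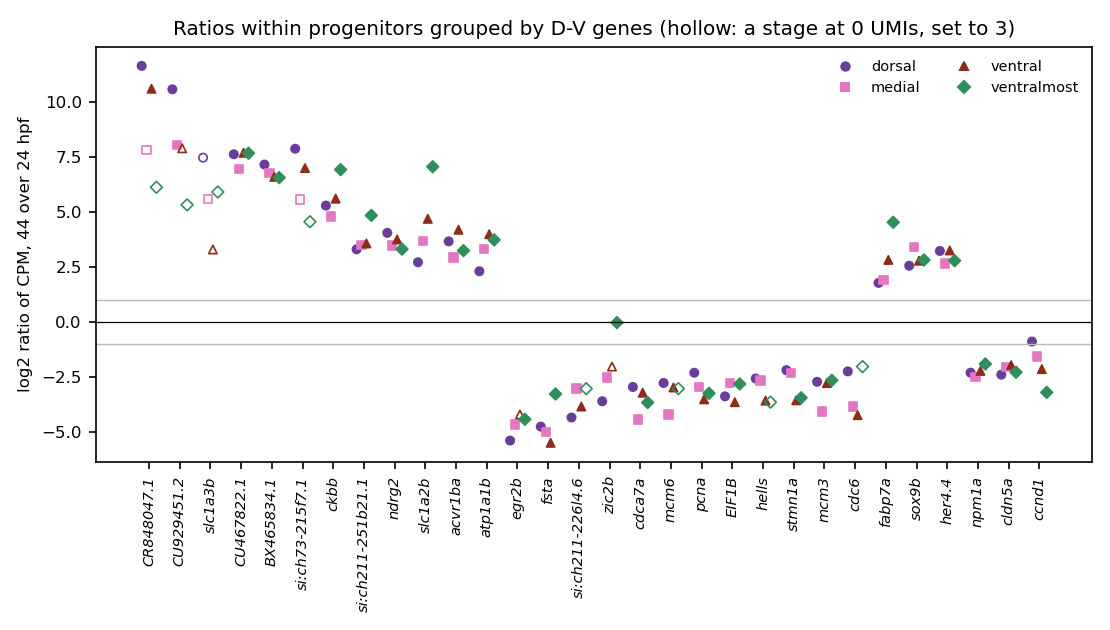
Log2 ratio of CPM (44 over 24 hpf, y axis) of the genes with the largest ratios and of 6 further genes, within progenitors grouped by dorsal, medial, ventral and ventralmost genes. Hollow symbols have 0 UMIs at 1 stage, set to 3; the 12 leading higher genes lie above and the 12 leading lower genes below 0, with *zic2b* of ventralmost cells next to it.

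Segment genes and signalling genes had some of the lowest single ratios. *egr2b*, the transcription factor of rhombomeres r3 and r5, had 304, 122 and 3.95 CPM (0.0323, 0.0147 to 0.0615), and *mafba*, of r5 and r6, 295, 32.4 and 10.96 CPM (0.338, 0.215 to 0.511). Of 20 segment genes 5 were lower (all genes, 12.2%), the others being *irx1b*, *meis3* and *meis1a*, and 1 higher (*pbx3b*, 18.0 and 50.4 CPM), and Hox genes such as *hoxa3a* (45.1 and 85.5 CPM) and *hoxb2a* (71.1 and 69.7 CPM) were not lower. *fsta*, the activin-binding protein follistatin, had 294, 126 and 6.14 CPM (0.0488, 0.0266 to 0.0823) and was seen in 45.9% and 1.58% of progenitors, with all UMIs counted at unequal depth. *acvr1ba*, a receptor of the same ligands, had 11.8 and 148 CPM (12.5, 9.95 to 15.8), and the inhibitor *smad7* 17.7 and 79.4 CPM (4.49, 3.59 to 5.63).

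The signalling lists held shares of lower genes near or under the 12.2% of all genes, except those of retinoic acid and of BMP, TGFb and follistatin. The latter held 2 higher and 2 lower of 12 genes, with a sum ratio of 0.832 (0.777 to 0.890). Of these lists, 13 Fgf response genes held 1 higher (*spred2b*) and 1 lower (*dusp6*, a phosphatase that Fgf signalling induces, 39.2 and 13.2 CPM), with a sum ratio of 0.972 (0.916 to 1.03). The 15 Wnt genes held 2 lower (*wls* and *wnt7bb*), with a sum ratio of 0.911 (0.876 to 0.946), and the 12 Hedgehog genes 1 lower, the ligand *shha*, with a sum ratio between 0.960 and 1.05. In the retinoic acid list 2 of 11 genes were higher, *rbp5* and the binding protein *crabp1b* (39.0 and 165 CPM), and 2 lower, *rdh10b* of its synthesis and the degrading enzyme *cyp26c1* (25.8 and 7.89 CPM). The tight junction gene *cldn5a* had 798, 534 and 114 CPM (0.213, 0.187 to 0.241), and *cdh2*, N-cadherin, 175 and 321 CPM. Among the leading lower genes outside any list were *EIF1B*, with 311, 232 and 24.1 CPM (0.104, 0.0779 to 0.136), and *si:ch211-226l4.6*, with 178, 117 and 8.33 CPM (0.0714, 0.0428 to 0.112). *EIF1B* had a ratio of 0.101 in *elavl*-high and 0.126 in marker-negative cells.

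Single genes of heat shock differed between the stages. *hsp70l*, an inducible heat-shock gene, had 951, 1913 and 7988 CPM (4.17, 4.09 to 4.27), and in *elavl*-high and marker-negative cells it had ratios of 6.09 and 4.04. Of 32 stress genes 5 were higher (*hsp70l*, *hspa5*, *hsp90b1*, *dnajb1a* and *jund*) and 4 lower, among them *hsp90aa1.1*, *serpinh1b* and *hspb1*. These counts stand against 7.3% and 12.2% of all genes. Of 5 cold-responsive genes 1 was higher (*hmgb1a*, 375 and 794 CPM), and the sum had a ratio of 1.04. The cold-responsive *cirbpa* had 3518, 3616 and 2494 CPM and *cirbpb* 2383, 2335 and 3386 CPM. When the comparison was kept to the 616 and 157 progenitors with at most 3 UMIs of *hsp70l* at equal UMIs, 332 of the 384 higher and 527 of the 639 lower genes were called again, of 519 and 841 calls in all. The ratio of the radial glia list was then 1.94 and that of the replication list 0.152, so both kept their direction among these cells. This selection was added after the data were seen, and the part of handling or temperature was not tested.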

How the data were processed

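The authors deposited whole UMI counts per gene and cell for 3 libraries, made with Cell Ranger on GRCz10 per the labels (version not given in the sources used here), without normalisation. Libraries were mapped to stages by their labels. Progenitors were chosen by the rule given above, their counts were summed, and CPM, ratios with exact conditional binomial intervals, Poisson intervals and Clopper-Pearson intervals were computed (Python 3.11.15, numpy 2.4.6, scipy 1.17.1, pandas 2.3.3, matplotlib 3.10.9). Against 0 UMIs, ratios were computed with 3 UMIs summed over that group. For shares, cells were thinned to 1500 UMIs. No cells were removed, no doublet caller was run and free RNA was not subtracted. The ratios were tested on simulated data.

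Members, lists and alternatives were chosen with earlier results of these data known. Genes named are the 12 with the largest ratio in each direction, ranked by the interval bound nearest to 1, with at least 100 CPM at the higher stage, without mitochondrial, ribosomal, haemoglobin and selecting genes, list genes that a sentence needs, and genes the paper names. RefSeq symbols or synonyms (GRCz12tu) matched 4954 of 5259 genes. Some results of the lists are not reported here.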

Additional observations from a re-analysis of the deposited data

Results flagged for a closer look

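*fabp7a* was flagged because its level moved in opposite directions in 2 groups of cells: it had 736 and 4679 CPM in progenitors at 24 and 44 hpf (6.36, 6.16 to 6.56), and 253 and 182 CPM in *elavl*-high cells (0.718, 0.627 to 0.823). The difference between the groups was not tested, since each stage is 1 library. In *elavl*-high cells the 17 epidermal genes summed to 11522 CPM at 24 hpf and 1233 CPM at 44 hpf. The make-up of this group thus differed between the stages, here and wherever its ratios are given above.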

How the results depend on the processing

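No paired analysis was possible because each stage is 1 library. With 24 hpf thinned to the depth of 44 hpf, 346 of the 384 higher and 574 of the 639 lower genes were called again. A mean CPM of at least 5 gave 987 lower genes, and one of at least 50 gave 115 higher and 157 lower. In low-cycle cells 235 of the higher and 272 of the lower genes were called again. The share of progenitors was 28.4% and 16.4% (24 and 44 hpf) at 1500 UMIs per cell, 33.6% at 24 hpf thinned to the depth of 44 hpf, 20.2% and 13.0% with *sox3* of at least 16, 43.5% and 19.7% with at least 4, 18.7% and 13.4% without any *elavl3* or *elavl4* UMI, and 38.3% at 24 hpf without cells over 3 median absolute deviations. Of 30 named genes past 2-fold, 29 to 30 stayed so in the same direction under each of 12 alternatives, the exceptions being *metrnl* in low-cycle cells and *cdkn1cb* at 1500 UMIs per cell. Their sizes moved more: of 37 named genes, 29 left their interval in low-cycle cells, 23 in cells with few *hsp70l* UMIs and 16 at 1500 UMIs per cell. The *hsp70l* selection and the removal of cells under 1500 UMIs were added after seeing the data. In low-cycle cells microglia and leukocyte genes had 0 UMIs at 24 hpf and 5.71 CPM at 44 hpf, so that the log2 ratio of -0.36 was computed against the floor of 3 UMIs and gives no direction. At 44 hpf, 3 UMIs correspond to 1.32 CPM, which limits what can be said of rare genes.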

Other observations

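Further genes outside the lists had large ratios, chosen after their values were seen. The GABA transporter *slc6a1b* had 0.609 CPM (5 UMIs) at 24 hpf and 74.1 CPM at 44 hpf (122, 51.1 to 380), *BX511161.1* 0.487 and 96.0 CPM, the calcium-binding protein *pvalb8* 0.365 CPM (3 UMIs) and 37.7 CPM, and the serine protease-like *prss35* 40.2 and 254 CPM (6.33, 5.52 to 7.27). The long non-coding RNA *si:ch73-21g5.7*, the neighbour of *her4.5* in the RefSeq order of GRCz12tu, had 313, 1292 and 3941 CPM at the successive stages (3.05, 2.97 to 3.14).

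Among the lower ones, *prtgb*, an adhesion protein of the immunoglobulin superfamily, had 246 UMIs at 24 hpf and none at 44 hpf (a ratio of 0.0439 with the floor of 3 UMIs in place of none), and enzymes of purine and pyrimidine synthesis were lower too: *atic* had 41.2 and 3.07 CPM (0.0746, 0.0298 to 0.155) and *cad* 85.5 and 8.77 CPM (0.103, 0.0623 to 0.160). The replication licensing inhibitor *gmnn* had 60.4 and 7.45 CPM (0.123, 0.0713 to 0.200), and the mismatch repair gene *msh6* 26.4 and 2.63 CPM.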
